A study of Rattus norvegicus with 12 samples.

Results

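The genes described here carry and buffer copper in the rat small intestine: the copper ATPases Atp7a and Atp7b, the copper importer Slc31a1, the copper carriers Atox1, Ccs and Cox17, the copper-handling protein Commd1 and the metallothionein Mt1. Every array probe set whose annotation gave exactly 1 gene symbol, and that symbol 1 of these 8 genes, was taken, whatever its values. The 8 genes stand against 14217 genes named this way on the array. They had 14 of its 31099 probe sets: 3 for Atp7a, 2 for Atp7b, 4 for Slc31a1 and 1 for each of the other genes. Of the 14, 13 had a mean signal of at least 100 over all arrays and were tested. The dimmer Atp7b probe set (1369123_a_at) was below that minimum.

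Expression was measured on Affymetrix arrays in mucosal scrapes of Belgrade rats, a strain with a recessive mutation of the iron transporter Slc11a2 (DMT1) whose homozygotes are known to be anaemic. The 4 groups were duodenum of +/b (heterozygous) rats, duodenum of b/b (homozygous) rats, jejunum of +/b rats and jejunum of b/b rats, with 3 arrays each. All rats carried at least 1 b allele, so there was no wild-type group, and the age of the rats is not given in the sources used here. By the series design each array held RNA of a group of rats, so p-values measure the spread between groups of rats. So few arrays limit the precision. The same 6 groups of rats gave both segments. Unless a block is named, the fit took all 12 arrays as independent and did not use this pairing.

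Dietary copper is taken into the enterocyte as a reduced ion, in part through Slc31a1, and is handed by small chaperones to its users: Atox1 serves the copper ATPases, Ccs serves the superoxide dismutase Sod1, and Cox17 serves cytochrome c oxidase in mitochondria. Atp7a moves copper out across the basolateral membrane, and metallothioneins bind spare copper and zinc inside the cell. Copper and iron absorption are linked, since the ferroxidase hephaestin (Heph) needs copper and intestinal Atp7a is known to be regulated by iron supply through hypoxia-inducible factor.

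Mt1 is the member for which upstream sequence is shown, beside its neighbour Mt2A, because metallothionein genes are known for metal response elements, the sites of the zinc-sensing factor Mtf1, and because the Mt1 signal varied more within groups than that of any other tested member. The windows are the 250 bases before each start in the RefSeq table for GRCr8, printed 5′ to 3′ along the gene. The Mt1 window lies at chr19:10832976-10833225 and the Mt2A window at chr19:10838709-10838958, and both genes are on the minus strand. Capitals mark the string TGCNCNC, searched on both strands. It is looser than the usual core of the metal response element, TGCRCNC, where R is A or G. The Mt1 match GAGAGCA and the Mt2A match GAGGGCA, read on the other strand, lack the A or G.
Mt1: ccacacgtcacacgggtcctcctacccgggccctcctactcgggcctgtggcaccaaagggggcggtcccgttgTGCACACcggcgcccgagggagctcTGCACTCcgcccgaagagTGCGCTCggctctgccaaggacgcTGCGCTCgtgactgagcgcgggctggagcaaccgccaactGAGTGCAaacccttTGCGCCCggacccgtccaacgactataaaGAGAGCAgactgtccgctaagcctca
Mt2A: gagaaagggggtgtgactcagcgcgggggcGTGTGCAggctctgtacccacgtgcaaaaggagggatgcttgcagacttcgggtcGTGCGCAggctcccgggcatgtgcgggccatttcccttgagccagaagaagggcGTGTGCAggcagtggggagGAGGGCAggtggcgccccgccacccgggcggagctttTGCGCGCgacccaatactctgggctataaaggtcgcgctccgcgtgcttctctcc
The Mt1 window held 7 matches that do not overlap each other, 5 on the gene's strand and 2 on the other, and the Mt2A window held 5. At least 1 match was found in 43.4% of the 33469 windows in the table, at least 5 in 0.37% and at least 7 in 0.0598%. Among the other members, Atp7b, Ccs, Commd1 and Cox17 had 1 match each and Slc31a1 and Atox1 had 0. The start used for the window of Atox1, Ccs, Commd1 and Cox17 lies 17 to 99 bases inside the gene of the RefSeq gene table, and that of Slc31a1 266 bases inside. The tabulated Atp7a window lies 43885 bases inside the gene and was not used. A match is a string of letters and was not tested as a binding site.

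Across the whole array, the median scaled signal per array was between 108 and 182. Replicate 1 of b/b duodenum correlated least with the other arrays (median Spearman 0.836). Both +/b duodenum replicates 2 and 3 were deposited at another scale (trimmed means of 51.6 and 127 against 500) and were multiplied by 9.69 and 3.95. The segment labels were borne out by the duodenum markers Pdx1, S100g and Akp3 (3 of 3 measured), whose summed signal was 23608 to 50128 in duodenum and 1028 to 1926 in jejunum arrays. Markers of enterocytes (9 of 10 measured) averaged 14.25 to 16.10 on the log2 scale in every array. All 9 were lower in jejunum than in duodenum, with median differences of -0.41 in +/b and -0.14 in b/b rats. All 9 were also lower in b/b than in +/b duodenum (median -0.27), whereas in jejunum 4 were higher and 5 lower. None of these differences was called, and their part in differences such as those of Atox1 and Heph was not tested. Exocrine pancreas markers (14 of 16 measured) stood out on a pair of duodenum arrays, with log2 averages of 13.51 for +/b replicate 2 and 9.05 for b/b replicate 3, while the remaining duodenum averages were 5.76 to 6.77. Globin and other blood markers (8 of 11 measured, Ahsp, Epb42, Rhag and Hemgn among them below the minimum) summed to 2072 to 3595 in +/b and 10508 to 18008 in b/b arrays. In bulk tissue such as this, fewer cells of a type and less RNA per cell cannot be told apart.

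**Figure D1:**
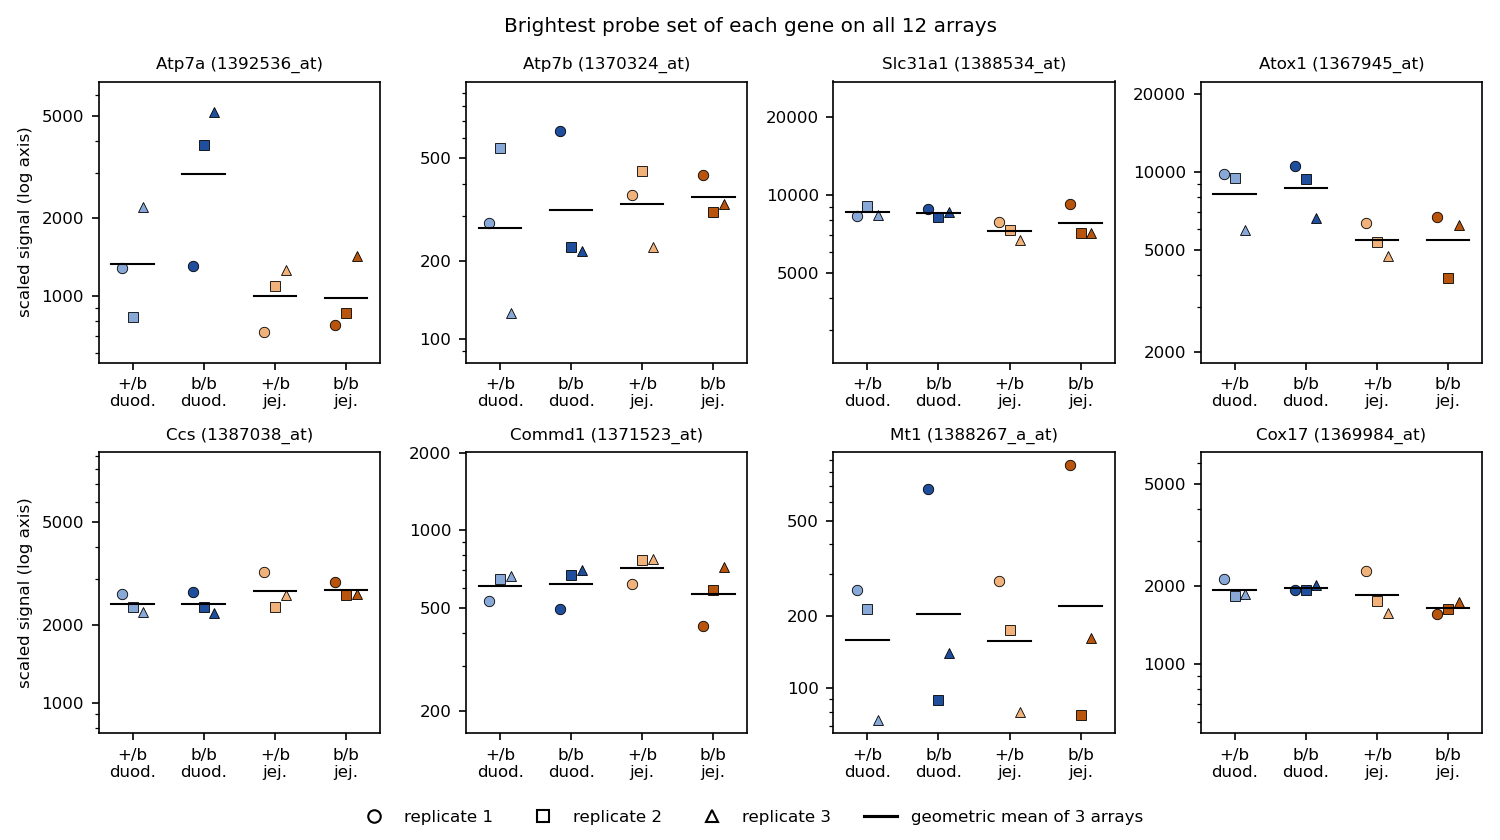
Scaled signal (log axis) of the brightest probe set of each of the 8 genes in the 4 groups, with 1 point per array shaped by replicate number and a line at the geometric mean of 3 arrays. Atp7a reached 3840 and 5175 in b/b duodenum replicates 2 and 3, above the other 10 arrays, while Ccs and Cox17 stayed within 2226 to 3194 and 1564 to 2297.

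Transcripts of the exporter Atp7a were most abundant in b/b duodenum. On the brightest probe set (1392536_at) the signals of replicates 1 to 3 were 1306, 3840 and 5175 in b/b duodenum and 1283, 833 and 2206 in +/b duodenum. In jejunum they were 725, 1096 and 1266 in +/b and 773, 863 and 1431 in b/b rats. Replicates 2 and 3 of b/b duodenum were above all other arrays, whereas replicate 1 lay among the +/b duodenum values, so the duodenal groups overlapped. The plot of the brightest probe sets shows this split within b/b duodenum.

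The other Atp7a probe sets were dimmer and gave the same order of group means between the duodenal groups. On 1380395_at the signals were 288, 317 and 431 in b/b duodenum and 152, 148 and 44.4 in +/b duodenum, so these groups did not overlap. In jejunum the same probe set gave 26.0, 119 and 173 in +/b and 34.2, 151 and 142 in b/b rats. On 1369342_at the signals were 254, 323 and 226 in b/b duodenum, 159, 119 and 248 in +/b duodenum, 42.7, 186 and 75.3 in +/b jejunum and 46.0, 142 and 93.2 in b/b jejunum. Here b/b duodenum was above every jejunum array and overlapped +/b duodenum. The log2 values of the 3 probe sets correlated with each other at r = 0.62, 0.70 and 0.65 over the 12 arrays, which as probe sets of 1 gene on shared arrays are not independent.

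**Figure D2:**
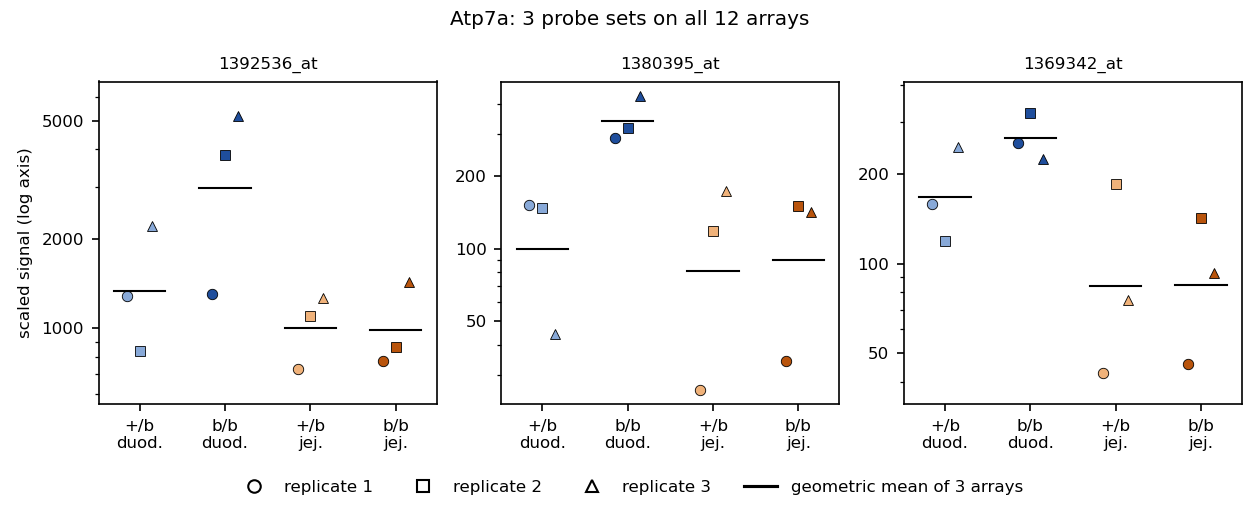
Scaled signal (log axis) of the 3 Atp7a probe sets on all 12 arrays by group, with points shaped by replicate number and lines at geometric means. In b/b duodenum 1380395_at and 1369342_at lie at 288 to 431 and 226 to 323, and both b/b jejunum sets lie below 152.

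Comparing genotypes in the duodenum, Atp7a was 2.21-fold higher in b/b rats on 1392536_at (1.14 ± 0.46 SE on the log2(signal + 16) scale, interval 0.17 to 2.12, n = 3 arrays per group), which did not pass the test over all probe sets (limma adjusted p = 0.789, unadjusted p = 0.0249). On 1380395_at the difference was 1.59 ± 0.62 (limma adjusted p = 0.789, unadjusted p = 0.022). On 1369342_at it was 0.61 ± 0.49 (limma adjusted p = 0.865). The size depended on single arrays: for 1392536_at it was 0.74 without b/b duodenum replicate 3 and 1.73 without b/b duodenum replicate 1. Without both arrays that were highest in exocrine pancreas markers it was 0.41 ± 0.47 on 1392536_at and 1.66 ± 0.80 on 1380395_at (limma adjusted p = 0.831 and 0.573). Blood markers also differed between these groups, and crypt markers (5 of 6 measured) summed to 2306 to 3138 in b/b and 2984 to 6970 in +/b duodenum. Their part in the Atp7a difference was not tested.

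In the jejunum the Atp7a values of both genotypes lay close together. The differences of b/b from +/b were -0.02 ± 0.46, 0.10 ± 0.62 and -0.00 ± 0.49 on the 3 probe sets (limma adjusted p = 1 for each). The interval on 1392536_at reached up to 0.95, near the difference measured in the duodenum. The interaction, the jejunal minus the duodenal genotype difference, was -1.17 ± 0.64, -1.49 ± 0.87 and -0.61 ± 0.69 (limma adjusted p = 1 for each), so the genotype effects were not shown to differ between the segments. With the group of rats as a block the first of these was -1.17 ± 0.40 (limma adjusted p = 0.965), and 0.0113% of all probe sets passed.

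Between the segments, Atp7a was lower in jejunum than in duodenum of b/b rats on every probe set. The differences were -1.57 ± 0.46 on 1392536_at, -1.70 ± 0.62 on 1380395_at and -1.46 ± 0.49 on 1369342_at (limma adjusted p = 0.198, 0.343 and 0.288), and the groups did not overlap on the latter pair. These comparisons use the same b/b duodenum arrays as the genotype comparison and are no separate evidence of their high level. Taken pair by pair, the jejunal value on 1392536_at lay below the duodenal value in 3 of 3 b/b groups of rats, by -0.75, -2.13 and -1.84. With the group of rats as a block, which follows the pairing in the series design, this difference passed the test (-1.57 ± 0.28, limma adjusted p = 0.0138), as did 2.44% of all probe sets. It also passed without b/b duodenum replicate 1 (-2.16, limma adjusted p = 0.0143), and over its 18 alternatives the adjusted p ran from 0.00411 to 0.545. Without the 2 arrays highest in pancreas markers the difference was -1.17 (limma adjusted p = 0.39). Crypt markers differed between these groups too, with summed signals of 2306 to 3138 in b/b duodenum and 4096 to 6508 in b/b jejunum, and their part was not tested.

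In +/b rats the segment difference of Atp7a was smaller. It was -0.41 ± 0.46, -0.21 ± 0.62 and -0.84 ± 0.49 on the 3 probe sets (limma adjusted p = 0.976, 0.993 and 0.941). By groups of rats, the difference on 1392536_at was -0.81, 0.39 and -0.79, so 2 of 3 were lower in jejunum. The exception, replicate 2, contains the duodenum array with the most exocrine pancreas signal, and the part of that signal in the value was not tested.

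Genes whose pattern was most like that of Atp7a over the 12 arrays, by Pearson correlation of log2 values with 1392536_at, were Idi1 (r = 0.94), Acot9 (0.94), Snapc1 (0.93), Nsdhl (0.93) and Slc30a10 (0.93). Idi1 and Nsdhl encode enzymes of sterol synthesis and Slc30a10 a manganese exporter. Their mean signals were highest in b/b duodenum as well, for example 2230 for Idi1 there against 964 in +/b duodenum, 472 in +/b jejunum and 479 in b/b jejunum. The correlations describe the same arrays that gave the Atp7a values and were picked as the highest, so they carry no test.

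Atp7b, the copper ATPase better known from liver, had no common order of groups. By brightest probe sets its mean signal was lower than that of every other member except Mt1. On 1370324_at its signals were 280, 550 and 126 in +/b duodenum and 638, 227 and 219 in b/b duodenum. In jejunum they were 362, 448 and 226 in +/b and 431, 311 and 332 in b/b rats, and each pair of groups overlapped. Its differences were 0.21 ± 0.48 between genotypes in duodenum, 0.09 ± 0.48 in jejunum, 0.28 ± 0.48 between segments in +/b and 0.15 ± 0.48 in b/b rats (limma adjusted p between 0.963 and 1). The untested probe set ran from 18.3 to 192 and did not follow the tested one (r = -0.15 over 12 arrays).

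The importer Slc31a1 (Ctr1) was measured by 4 probe sets that fell into pairs. The brightest, 1388534_at, was steady, with signals of 8304, 9088 and 8366 in +/b duodenum, 8847, 8177 and 8590 in b/b duodenum, 7831, 7314 and 6684 in +/b jejunum and 9226, 7147 and 7105 in b/b jejunum. In +/b rats every jejunum array was below every duodenum array, whereas the other groups overlapped. The second, 1368045_at, ran from 4500 to 9062 and correlated with the first at r = 0.57, while 1394871_at and 1368046_at correlated with each other at r = 0.88 and with the former pair at r between -0.02 and 0.37.

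On 1368046_at the duodenal signals were 2274, 2279 and 2981 in +/b and 2783, 1733 and 642 in b/b rats. The jejunal signals were 2502, 2685 and 1385 in +/b and 4155, 2387 and 2519 in b/b rats. The widest spread was in b/b duodenum, and its replicate 3, which also carried pancreas markers, was the lowest of the 12 arrays. The part of those markers in its value was not tested. The plot of the Slc31a1 probe sets shows that array low on the dimmer pair and within the range of the other arrays on the brighter pair.

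**Figure D3:**
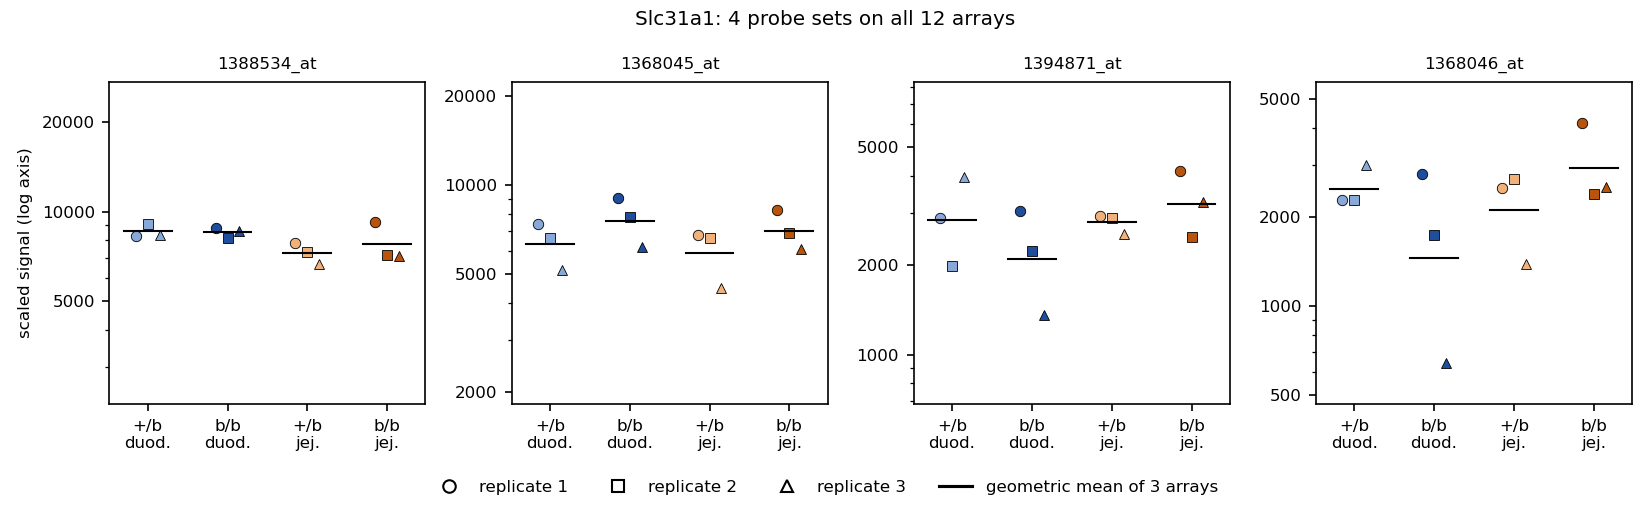
Scaled signal (log axis) of the 4 Slc31a1 probe sets on all 12 arrays by group, with points shaped by replicate number and lines at geometric means. The array of b/b duodenum replicate 3 is lowest on 1394871_at (1364) and 1368046_at (642), but at 8590 on 1388534_at.

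Between genotypes, the brighter Slc31a1 pair differed by -0.01 ± 0.17 and 0.26 ± 0.23 in duodenum and 0.10 ± 0.17 and 0.25 ± 0.23 in jejunum. The dimmer pair differed by -0.43 ± 0.30 and -0.76 ± 0.42 in duodenum and by 0.21 ± 0.30 and 0.47 ± 0.42 in jejunum (limma adjusted p between 0.807 and 1 for these 8 values). For 1388534_at in duodenum the interval was -0.38 to 0.37. Between the segments of b/b rats 1368046_at was higher in jejunum by 0.99 ± 0.42 (limma adjusted p = 0.444, unadjusted p = 0.0338), and 0.41 without b/b duodenum replicate 3. On 1388534_at the segment difference was -0.24 ± 0.17 in +/b and -0.14 ± 0.17 in b/b rats (limma adjusted p = 0.953 and 0.898). The Slc31a1 probe sets split in direction between genotypes in duodenum and between the segments of b/b rats. Every one was higher in b/b than in +/b jejunum and lower in jejunum than in duodenum of +/b rats, without passing the test.

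Atox1, the chaperone that passes copper to the copper ATPases, was lower in jejunum than in duodenum in both genotypes. Its signals were 9778, 9489 and 5935 in +/b duodenum, 10581, 9384 and 6607 in b/b duodenum, 6356, 5340 and 4729 in +/b jejunum and 6720, 3872 and 6246 in b/b jejunum. Replicate 3 was the lowest duodenum array of each genotype and made the segments overlap. The segment difference was -0.59 ± 0.27 in +/b and -0.67 ± 0.27 in b/b rats (limma adjusted p = 0.92 and 0.405, unadjusted p = 0.0455 and 0.0262), and neither passed the test. Each of the 6 groups of rats had less Atox1 in jejunum, by -0.62, -0.83 and -0.33 in +/b and -0.65, -1.27 and -0.08 in b/b rats. Between genotypes it differed by 0.08 ± 0.27 in duodenum and 0.01 ± 0.27 in jejunum (limma adjusted p = 0.976 and 1).

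Ccs, which loads copper into Sod1, varied little between arrays. Its signals were 2630, 2339 and 2245 in +/b duodenum, 2687, 2341 and 2226 in b/b duodenum, 3194, 2343 and 2602 in +/b jejunum and 2927, 2618 and 2626 in b/b jejunum. Each pair of compared groups overlapped, and the genotype differences were 0.01 ± 0.17 in duodenum and 0.02 ± 0.17 in jejunum (limma adjusted p = 0.998 and 1). The duodenal interval was -0.36 to 0.37. The segment differences were 0.16 ± 0.17 in +/b and 0.17 ± 0.17 in b/b rats (limma adjusted p = 0.966 and 0.841). By groups of rats Ccs was higher in jejunum in each of the 6, by 0.28, 0.0024 and 0.21 in +/b and 0.12, 0.16 and 0.24 in b/b rats.

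Cox17, the copper chaperone of mitochondria, had signals of 2129, 1839 and 1870 in +/b duodenum and 1939, 1945 and 2033 in b/b duodenum. The jejunal signals were 2297, 1763 and 1577 in +/b and 1564, 1639 and 1740 in b/b rats. In b/b rats the jejunum lay wholly below the duodenum, by -0.26 ± 0.17 (limma adjusted p = 0.705), and the other compared groups overlapped. The genotype differences were 0.02 ± 0.17 and -0.17 ± 0.17 in duodenum and jejunum (limma adjusted p = 0.99 and 1).

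Commd1, which takes part in copper export and protein sorting, had signals of 531, 648 and 665 in +/b duodenum and 498, 674 and 702 in b/b duodenum. In jejunum they were 618, 767 and 772 in +/b and 428, 586 and 722 in b/b rats. Replicate 1 was the lowest of each group, and the groups overlapped in every comparison. The genotype difference was 0.01 ± 0.23 in duodenum and -0.33 ± 0.23 in jejunum (limma adjusted p = 0.996 and 1), and the segment differences were 0.22 ± 0.23 in +/b and -0.12 ± 0.23 in b/b rats (limma adjusted p = 0.966 and 0.937). By groups of rats Commd1 was higher in jejunum by 0.21, 0.24 and 0.21 in +/b rats, and differed by -0.21, -0.20 and 0.04 in b/b rats.

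Mt1, the copper- and zinc-binding metallothionein whose upstream window is printed above, varied far more within groups than between the means of genotypes or segments. Its signals on 1388267_a_at were 259, 215 and 73.6 in +/b duodenum and 680, 89.7 and 141 in b/b duodenum. In jejunum they were 281, 175 and 80.0 in +/b and 861, 77.6 and 163 in b/b rats. Replicate 1 was the highest of every group, and all compared groups overlapped. The genotype difference was 0.34 ± 0.81 in duodenum (interval -1.40 to 2.08) and 0.48 ± 0.81 in jejunum (limma adjusted p = 0.966 and 1). Without replicate 1 of b/b rats it became -0.47 in duodenum and -0.44 in jejunum, so its sign rested on that group of rats. The segment differences were -0.02 ± 0.81 in +/b and 0.12 ± 0.81 in b/b rats (limma adjusted p = 1 and 0.989).

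In Mt1 the duodenum and jejunum of the same group of rats had much the same level. Over the 6 groups of rats the log2 values of both segments correlated at r = 0.986 (exact permutation p = 0.00278, two-sided, Benjamini-Hochberg adjusted over the 14 member probe sets p = 0.0194) and rho = 0.943 (exact permutation p = 0.0167, adjusted p = 0.117). Without the 2 groups farthest from the duodenal median r was 0.948. Slc31a1 on 1368045_at gave r = 0.954 (exact permutation adjusted p = 0.0194) and rho = 1 (exact permutation adjusted p = 0.0389), with r = 0.899 without the farthest 2. Atp7b on 1370324_at gave r = 0.955 (exact permutation adjusted p = 0.0259) and rho = 0.886 (exact permutation adjusted p = 0.156), and r = 0.983 without the farthest 2. Atp7a on 1392536_at gave r = 0.452 (exact permutation adjusted p = 0.595). These 3 of 13 tested member probe sets had r above 0.9, which 4.50% of all probe sets had. The exact tests are against r = 0, whereas the median r over all tested probe sets in these 6 groups of rats was 0.348. Their permutations exchange the 6 groups without regard to genotype or replicate number. These p-values therefore cannot separate differences between rats from those that go with the replicate number.

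**Figure D4:**
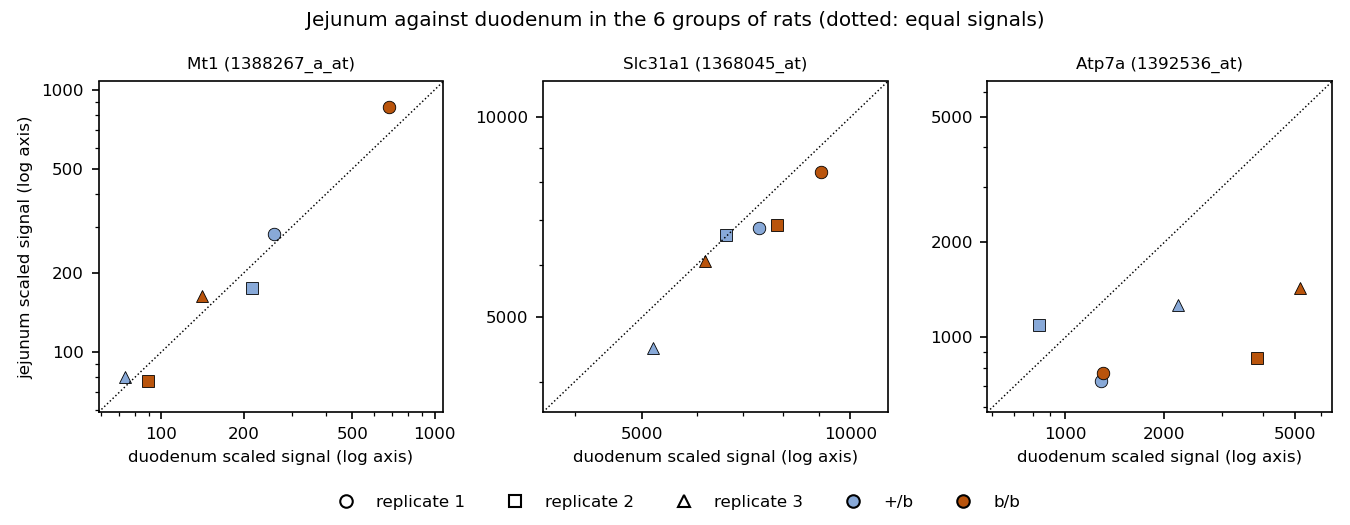
Jejunal against duodenal scaled signal (both log axes) of Mt1, Slc31a1 and Atp7a, with 1 point per group of rats, shaped by replicate number and coloured by genotype; the dotted line marks equal signals. Mt1 points follow the line from 73.6 to 861, while 2 b/b groups of rats lie far below it for Atp7a, at 3840 and 5175 in duodenum.

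The replicate number itself went with these values. Replicate 1 was the highest array in all 4 groups for Mt1, Atox1, Ccs and Slc31a1 (1368045_at), 4 of 13 member probe sets (30.8%), against 6.98% of all probe sets. Replicate 3 was the highest in all 4 groups for Atp7a (1392536_at) and Commd1, 2 of 13 (15.4%), against 7.29%. The highest signal on each array had the order of replicates 1, 2 and 3 in each group as well, for example 145043, 48031 and 33082 in b/b duodenum. Each number covers 1 group of rats per genotype, too few for a value within a number, so animals and array handling cannot be told apart here. Markers of enterocytes and of goblet cells had the same order of replicates in all 4 groups, with log2 averages of 16.10, 14.86 and 14.31 and of 14.23, 13.50 and 13.18 in b/b duodenum. Their part in the member values was not tested.

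Over the 12 arrays, the genes with a pattern most like Mt1 were Vps13d (r = 0.93), P3r3urf (0.91), Eps8l1 (0.90), Ptpn21 (0.90) and Pttg1ip (0.89), again as a description of shared arrays. The second metallothionein, Mt2A, correlated with Mt1 at r = 0.45, and the zinc exporter Slc30a1 at r = 0.56. An additional Mt1 probe set that the annotation gives to several genes was not used, and the near-identical metallothionein genes may share signal on the probe set used.

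Counted together, 0 of the 13 member probe sets passed the limma test between genotypes in duodenum, where 0.0396% of all 17694 probe sets did, and 2 (15.4%), both of Atp7a, had an unadjusted p under 0.05, against 6.17%. In that comparison 10 of 13 values were above 0 (44.5% of all) and 1 had no overlap (8.70% of all), with a median of 0.08 against -0.05 over all probe sets. In jejunum 0 passed in limma (0.0339% of all), 0 had an unadjusted p under 0.05 (1.34%) and 0 had no overlap (7.90%), with 9 of 13 above 0 (45.5%) and a median of 0.09 against -0.03. Between the segments of +/b rats 0 passed in limma (0.0565%), 1 had an unadjusted p under 0.05 (5.36%), 1 had no overlap (10.8%) and 3 were above 0 (56.6%), with a median of -0.10 against 0.05. In b/b rats 0 passed in limma (0.763%), 5 (38.5%) had an unadjusted p under 0.05 (9.77%), 3 of these of the 1 gene Atp7a, 3 had no overlap (14.8%) and 5 were above 0 (58.1%), with a median of -0.12 against 0.07. For the interaction 0 passed in limma (0% of all), 0 had an unadjusted p under 0.05 (1.73%) and 5 were above 0 (52.0%).

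**Figure D5:**
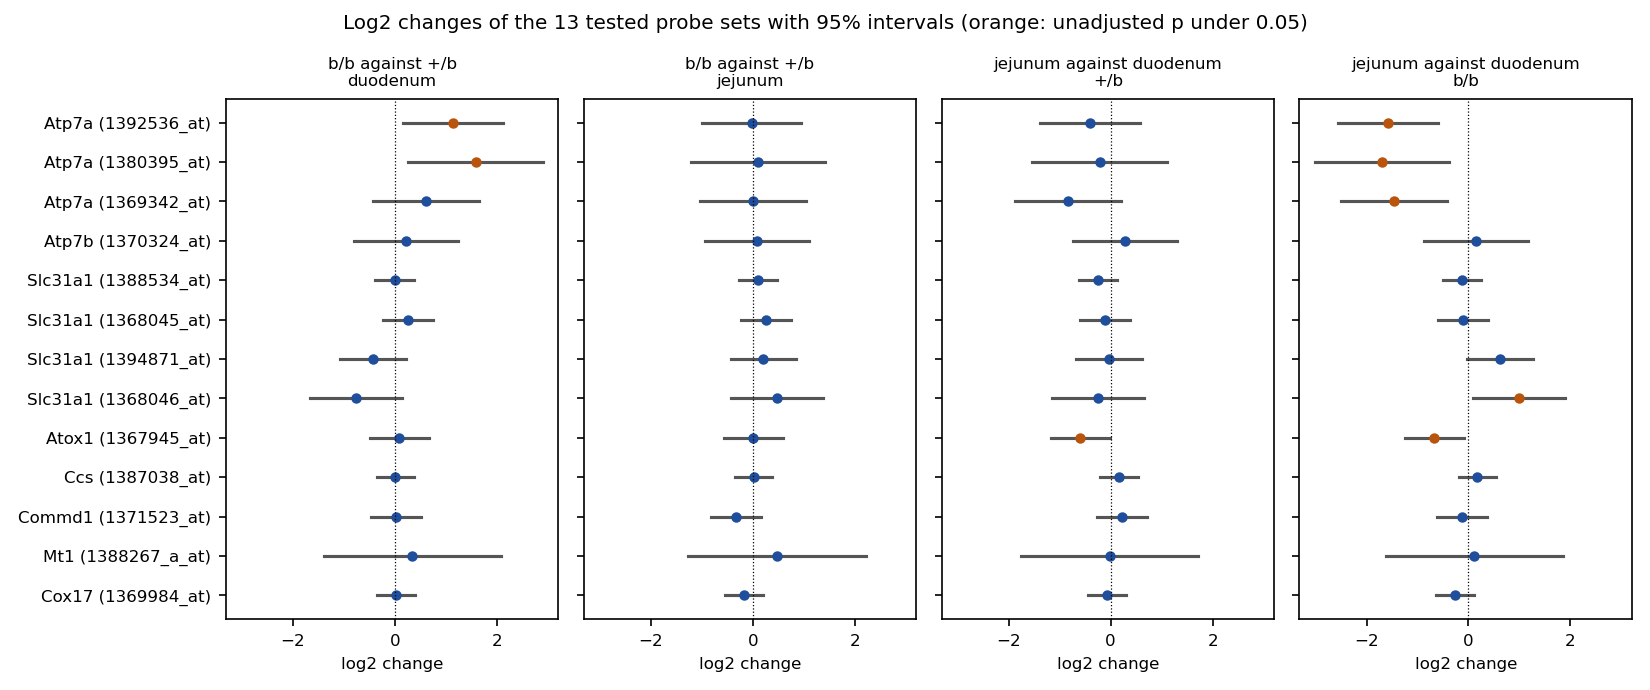
Log2 differences (points) with 95% intervals (lines) of the 13 tested probe sets in the 4 comparisons, orange where the unadjusted limma p was under 0.05. The widest intervals belong to Mt1 (-1.40 to 2.08 between genotypes in duodenum), and the Ccs interval in that comparison spans -0.36 to 0.37.

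Beyond these 8 genes, 50 further copper genes were listed by role, of which 34 were measured above the minimum. Each gene is counted by its brightest probe set. In the fit without a block 0 of the 34 passed the limma test in each of the 5 contrasts. Between genotypes, 1 of 34 had an unadjusted p under 0.05 in duodenum (6.17% of all probe sets) and 0 in jejunum (1.34%), and 2 and 4 had no overlap (8.70% and 7.90%). Between segments, 4 had an unadjusted p under 0.05 in +/b rats (5.36%) and 6 in b/b rats (9.77%), and 6 and 12 had no overlap (10.8% and 14.8%). For the interaction the count was 1 (1.73%). The median differences were -0.05 and -0.04 between genotypes, against -0.05 and -0.03 over all probe sets. They were -0.06 and -0.06 between segments, against 0.05 and 0.07, and 0.06 for the interaction, against 0.02.

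The dimmer probe sets of these genes that reached the minimum signal were fitted as well, and 0 of them passed. The others were not tested. Those with an unadjusted p under 0.05 are named here. Over all probe sets such a p was found in 9.77% between segments of b/b rats. The share was 6.17% between genotypes in duodenum and 1.73% for the interaction. In b/b rats a dimmer probe set of App, the amyloid precursor gene, differed between segments by 0.54 ± 0.22 and one of Coa5 by -0.91 ± 0.40 (limma unadjusted p = 0.03 and 0.0366, adjusted p = 0.422 and 0.454). Between genotypes in duodenum a dimmer Xiap probe set differed by -1.13 ± 0.53 (limma unadjusted p = 0.0496, adjusted p = 0.789). For the interaction a dimmer Cox19 probe set had -1.37 ± 0.61 (limma unadjusted p = 0.0408, adjusted p = 1).

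In the uptake and reduction list (2 of 4 measured), the second copper transporter Slc31a2 was lower in b/b than in +/b rats on its tested probe set. There the genotypes did not overlap in either segment. Its duodenal signals were 136, 117 and 119 in +/b and 75.9, 63.0 and 65.8 in b/b rats, a difference of -0.73 ± 0.35 (limma adjusted p = 0.789). In jejunum they were 124, 135 and 160 in +/b and 109, 118 and 88.4 in b/b rats, a difference of -0.36 ± 0.35 (limma adjusted p = 1). These signals were near the minimum for testing, and neither difference passed. A dimmer Slc31a2 probe set (1394954_at), below the minimum, had mean log2 values of 5.20 in b/b and 6.60 in +/b duodenum, without overlap. In jejunum its means were 6.77 in b/b and 6.69 in +/b rats, with overlap. The other tested gene of this list, Steap3, had the smaller p. It was higher in jejunum than in duodenum of b/b rats by 0.61 (limma unadjusted p = 0.0422, adjusted p = 0.483). Its signals were 285, 240 and 343 in b/b duodenum and 438, 602 and 338 in b/b jejunum, with overlap. Between genotypes Steap3 differed by -0.46 in duodenum (limma adjusted p = 0.818) and 0.13 in jejunum.

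Among copper enzymes (7 of 17 measured), the ferroxidase Heph was lower in jejunum without overlap in both genotypes, by -0.40 ± 0.19 in +/b and -0.37 ± 0.19 in b/b rats (limma adjusted p = 0.927 and 0.562). Its duodenal signals were 11752, 14310 and 14555 in +/b and 14761, 14686 and 12964 in b/b rats. The amidating enzyme Pam was higher in jejunum of b/b rats, at 1326, 1262 and 1242 against 822, 855 and 855 (0.59 ± 0.16, limma adjusted p = 0.172). With the group of rats as a random block Pam passed (limma adjusted p = 0.046), and as a fixed block it did not (limma adjusted p = 0.0966). Sod1, the client of Ccs, was lower in b/b jejunum than in b/b duodenum by -0.37 ± 0.17 (limma adjusted p = 0.492). The mitochondrial list (7 of 9 measured) had 1 member whose brightest probe set had an unadjusted p under 0.05 in a comparison, Cox19. On that probe set Cox19 was lower in jejunum than in duodenum of b/b rats by -0.39 (limma adjusted p = 0.486).

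Among copper-binding proteins and regulators (15 of 15 measured), the prion protein gene Prnp and the glutaredoxin gene Glrx were lower in jejunum in both genotypes. On their brightest probe sets the groups did not overlap. Prnp had 1734, 1463 and 2577 in +/b duodenum, 1234, 2933 and 2542 in b/b duodenum, 805, 633 and 1035 in +/b jejunum and 575, 949 and 939 in b/b jejunum. It differed by -1.19 ± 0.33 in +/b and -1.37 ± 0.33 in b/b rats (limma adjusted p = 0.456 and 0.0912). With the group of rats as a block both passed, at -1.19 ± 0.16 and -1.37 ± 0.16 (limma adjusted p = 0.00667 and 0.000856), as did 0.486% and 2.44% of all probe sets. With it as a random block the b/b call held and the +/b call did not (limma adjusted p = 0.0082 and 0.0616). Glrx differed by -0.66 ± 0.22 in +/b and -0.92 ± 0.22 in b/b rats (limma adjusted p = 0.706 and 0.0907), and with the block the b/b value passed (-0.92 ± 0.13, limma adjusted p = 0.00364). Its dimmer probe set (1367705_at) differed by -0.67 ± 0.36 and -0.69 ± 0.36 (limma adjusted p = 0.939 and 0.58). There the groups overlapped in both genotypes. Paneth and crypt markers moved between the same segments: 4 of 4 tested Paneth and 5 of 5 tested crypt markers were higher in jejunum in each genotype, with 2 Paneth markers called in b/b rats. Their part in the segment differences of Prnp, Glrx and Pam was not tested. Commd7 was higher in b/b duodenum on its brightest probe set, by 1.79 ± 0.56 (limma adjusted p = 0.702; 0.37 without the 2 arrays deposited at another scale), but lower by -0.30 ± 0.32 and -0.41 ± 0.33 on its other probe sets (limma adjusted p = 0.906 and 0.866).

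In the metallothionein and metal response list (3 of 5 measured), Mt2A was higher in jejunum than in duodenum of b/b rats in 3 of 3 groups of rats. Its signals were 1766, 571 and 2856 in b/b duodenum and 3041, 1846 and 4431 in b/b jejunum, against 2180, 789 and 923 in +/b duodenum and 3375, 856 and 907 in +/b jejunum. The b/b difference was 1.03 ± 0.61 (limma adjusted p = 0.651), and with the group of rats as a block it passed (1.03 ± 0.21, limma adjusted p = 0.0273). It was 0.38 without b/b duodenum replicate 2, and with the same groups of rats as a random block it did not pass (limma adjusted p = 0.284). Paneth cell markers (5 of 5 measured, Defa5 below the minimum) also differed between these groups, with summed signals of 5636 to 13851 in b/b duodenum and 21720 to 52311 in b/b jejunum. Their part in the Mt2A difference was not tested.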

How the data were processed

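The authors deposited 1 linear signal intensity for each probe set and array. The submitters' processing notes name MAS5 for 10 of the 12 arrays, with the version, background and scaling not given in the sources used here. Each array was scaled to a 2% trimmed mean of 500, 57 control probe sets were removed, and the 17694 probe sets whose scaled signals averaged 100 or more were tested. Multiplying the 2 arrays of lower scale also multiplies the noise of their dim probe sets. Log2(scaled signal + 16) values were fitted with 4 group means over all 12 arrays in limma 3.58.1 (R 4.3.3; eBayes with an intensity trend). P-values were two-sided and adjusted by the Benjamini-Hochberg method over all probe sets (threshold 0.05). The pseudocount of 16 understates changes of dim genes. The script was tested on simulated data.

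The 8 genes and the lists of other copper genes and cell markers were chosen with earlier results of these data known. Named genes were the 8 members, with values per array for their brightest probe set and any other with an unadjusted p under 0.05. Added to these were up to 4 genes of smallest p from each list and the 5 genes most correlated with Atp7a and Mt1. Of the list genes, Cmc1, Sco1, Cutc, Mtf1 and Slc30a1 fell under this rule, but their differences are not printed. Their smallest unadjusted limma p in any contrast ran from 0.0624 to 0.261. The third Atp7a probe set and the Commd7, Glrx and Slc31a2 probe sets beyond the brightest are shown for comparison.

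By the series design a group of rats gave both segments, and within a genotype the replicate number was taken to name that group. Deviations of such pairs from the group means correlated at 0.19 to 0.28 in +/b and 0.16 to 0.38 in b/b rats. Same-numbered arrays of different genotypes, which are different animals, correlated at -0.06 to 0.16 (duodenum), 0.12 to 0.42 (jejunum), 0.14 to 0.45 (+/b jejunum with b/b duodenum) and 0.03 to 0.26 (+/b duodenum with b/b jejunum). The correlations within a genotype therefore do not single out shared rats, and that pairing rests on the series design. Alternatives covered the pseudocount, filter, scaling, array weights, blocks, a single value per gene and arrays left out. Upstream windows came from the RefSeq table for GRCr8.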

Additional observations from a re-analysis of the deposited data

How the results depend on the processing

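With 3 arrays per group, differences in widely spread probe sets such as those of Mt1 and Atp7b could not be resolved below the widths of their intervals. The count of member probe sets called was 0 in each comparison and under each alternative except between the segments of b/b rats. There it was 1, Atp7a on 1392536_at, with array weights, with the group of rats as a fixed block and with it as a random block, and it ran from 0 to 1 when single arrays were left out (1 without b/b duodenum replicate 1). No other member's call changed with a replicate block. Of 2865 values under alternatives, 202 had another sign, 198 of them within 1 SE of 0 at the start. The other 4 concern listed genes. Glrx between genotypes in duodenum went from 0.28 to -0.0217 without the 2 arrays deposited at another scale. Slc25a3 between the segments of +/b rats went from -0.39 to 0.0111 with quantile normalization. Sod3 in the same comparison went from 0.80 to -0.22 without the 2 arrays deposited at another scale, and ran from -0.0701 (without +/b duodenum replicate 3) to 1.32 when single arrays were left out. The cause was not tested. Over all probe sets the count called ran from 3 to 15 (7 in the fit reported) between genotypes in duodenum, 2 to 8 (6) in jejunum, 2 to 86 (10) between segments in +/b rats, 33 to 642 (135) in b/b rats and 0 to 2 (0) for the interaction. The alternative without the 2 arrays highest in pancreas markers was chosen after seeing the data.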
